A study of Mus musculus with 9 samples.

Results

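The matrix metalloproteinases (MMPs) described here are the 10 genes *Mmp2*, *Mmp9*, *Mmp11*, *Mmp14*, *Mmp15*, *Mmp16*, *Mmp17*, *Mmp19*, *Mmp23* and *Mmp25*, which lie outside the MMP cluster of chromosome 9. They were chosen by symbol, by a rule that uses no measured value, and all 10 were found among the 55471 genes listed. *Mmp21*, *Mmp24* and *Mmp28*, which lie outside that cluster as well, were not on the list and were counted with the 13 other MMPs. RNA had been sequenced from 9 cultures of primary articular chondrocytes of wild-type mice, the cells that make and maintain cartilage, in 3 groups of 3. By the methods, the Control cultures received Ad-Control, an adenovirus without OSCAR, the Ad-OSCAR cultures an adenovirus carrying OSCAR, a receptor for collagen, and the Ad-OSCAR + 5-ASA cultures Ad-OSCAR and then 10 µM 5-ASA (5-aminosalicylic acid, an anti-inflammatory drug). The question was what OSCAR overexpression changed, and what 5-ASA changed in cells that overexpress OSCAR.

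All 9 cultures grew on plates coated with COLpep, a collagen peptide that binds OSCAR, and none received IL-1β. The cells came from knee cartilage (tibial plateaus and femoral condyles) of mice 5 days old by the labels and 4 to 5 days old by the methods. The labels give 3 days of culture, 2 h of infection at 400 MOI (infectious units of virus per cell) and 36 h before 5-ASA. The methods give 2 days, 800 MOI and a further 24 h with or without the drug. There was no group with 5-ASA and without OSCAR, so an effect of the drug that needs no OSCAR cannot be told apart from one that does. Whether the 3 cultures of a group came from separate animals is not stated, and the p-values below measure only the spread between cultures, which may be technical.

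MMPs are zinc-dependent proteases, made as inactive proenzymes, that cleave collagens, proteoglycans and other proteins outside the cell. The gelatinases MMP-2 and MMP-9 carry fibronectin-like repeats that bind denatured collagen. The membrane-type MMPs stay at the cell surface, held by a transmembrane domain (MMP-14, MMP-15 and MMP-16) or by a glycosylphosphatidylinositol (GPI) anchor (MMP-17 and MMP-25). MMP-14 cleaves fibrillar collagen and, with the inhibitor TIMP-2 as a bridge, activates proMMP-2, so the mRNA of one protease says little alone about its activity. MMP-11 and MMP-23 are activated by furin-like proprotein convertases, and MMP-19 cleaves basement membrane and cartilage matrix proteins.

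The promoters of 3 members that moved with Ad-OSCAR are shown, since they include the most abundant member in Control, the one with the largest rise and the one with the largest fall. Each is the 250 bases before a RefSeq transcript start on GRCm38.p6, and capitals mark a GC box (GGGCGG on either strand), a sequence bound by Sp1-type factors. The windows are chr14:54431348-54431597 on the plus strand for *Mmp14*, chr17:23645270-23645519 on the minus strand for *Mmp25*, and chr4:155653385-155653634 on the minus strand for *Mmp23*, the first of its 2 windows.
Mmp14: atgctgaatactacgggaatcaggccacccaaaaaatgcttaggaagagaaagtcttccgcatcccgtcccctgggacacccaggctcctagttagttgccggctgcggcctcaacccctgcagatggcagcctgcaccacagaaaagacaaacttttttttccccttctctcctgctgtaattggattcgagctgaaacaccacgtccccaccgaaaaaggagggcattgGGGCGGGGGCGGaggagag
Mmp25: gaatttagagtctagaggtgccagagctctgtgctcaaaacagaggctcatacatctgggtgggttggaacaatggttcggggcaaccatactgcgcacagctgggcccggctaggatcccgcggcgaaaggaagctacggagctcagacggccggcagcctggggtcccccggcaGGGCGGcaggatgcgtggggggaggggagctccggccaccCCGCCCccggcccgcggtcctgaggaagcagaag
Mmp23: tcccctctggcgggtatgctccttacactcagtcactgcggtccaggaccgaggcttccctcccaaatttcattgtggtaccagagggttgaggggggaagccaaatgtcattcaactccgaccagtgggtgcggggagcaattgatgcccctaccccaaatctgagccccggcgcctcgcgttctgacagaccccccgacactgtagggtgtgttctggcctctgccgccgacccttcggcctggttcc
The GC boxes of *Mmp14* began 19 and 13 bases before the start and those of *Mmp25* 74 and 34 bases before it. Neither *Mmp23* window held a match to any of the 3 motifs searched, on either strand: the GC box, the AP-1 site TGANTCA and the TATA box TATAAA. Windows were found for 5 of the 10 members, the others being *Mmp11* and *Mmp15*, and no AP-1 or TATA match lay in any of them. Over all 32851 windows, 32.7% held a GC box, 6.75% an AP-1 site and 12.4% a TATA box. A match or its lack describes these letters only.

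The cultures held between 19733448 and 28192740 estimated counts each, and all 10 members passed the filter on low counts that left 15362 genes to test. *Oscar* itself had 3 to 4 counts per culture in Control, 173445 to 187278 with Ad-OSCAR and 80766 to 94199 with 5-ASA. The treated cells thus had fewer *Oscar* counts as well, and the part of this in the differences with 5-ASA was not tested. The chondrocyte markers, 10 genes such as *Col2a1* and *Acan*, summed to between 43279 and 49157 CPM (counts scaled to the library size, with TMM for composition) in Control, 3089 to 3483 with Ad-OSCAR and 3966 to 4431 with 5-ASA, and all 10 were lower with Ad-OSCAR. In RNA from whole cultures, fewer cells of a type and less RNA per cell cannot be told apart.

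Per transcript length, *Mmp14* and *Mmp2* were far above the other members in every group. In TPM (transcripts scaled for length and to a fixed total), the Control means ran from 200 ± 1.96 for *Mmp14* and 163 ± 1.04 for *Mmp2* down to 0.193 ± 0.0252 for *Mmp25* (SD, n = 3 each). Together *Mmp2* and *Mmp14* made up 80.1% ± 0.435 of the summed TPM of the 10 members in Control, 89.0% ± 0.167 with Ad-OSCAR and 88.0% ± 0.379 with 5-ASA (SD, n = 3 each). The sum itself was 449 to 459 TPM in Control, 638 to 650 with Ad-OSCAR and 641 to 710 with 5-ASA. The members were nonetheless a small part of the MMP family, with 9.11% ± 0.487 of the TPM of all 23 MMP genes in Control, 3.64% ± 0.033 with Ad-OSCAR and 3.51% ± 0.352 with 5-ASA (SD, n = 3 each). In all groups most of the family's TPM was from the 13 other MMPs, which summed to 4348 to 4815 TPM in Control, 17001 to 17163 with Ad-OSCAR and 17670 to 19650 with 5-ASA.

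The order of the members by TPM differed between the groups. In Control it was *Mmp14*, *Mmp2*, *Mmp23* (43.3), *Mmp19* (26.4), *Mmp16* (10.8), *Mmp11* (8.04), *Mmp15* (0.737), *Mmp9* (0.657), *Mmp17* (0.317) and *Mmp25*. Of these neighbours, *Mmp15* and *Mmp9* overlapped. With Ad-OSCAR *Mmp14* (324) and *Mmp2* (250) led *Mmp19* (20.8), *Mmp11* (18.2), *Mmp23* (13.8), *Mmp16* (10.6), *Mmp9* (4.87), *Mmp25* (1.52), *Mmp15* (1.12) and *Mmp17* (0.25), and only *Mmp25* and *Mmp15* overlapped among neighbours. *Mmp23* thus went from the third to the fifth place and *Mmp25* from the last to the eighth. With 5-ASA *Mmp2* (302) and *Mmp14* (287) overlapped, as did *Mmp23* (20.0) and *Mmp11* (19.7), *Mmp16* (7.97) and *Mmp9* (6.92), and *Mmp25* (1.29) and *Mmp15* (0.763).

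**Figure D1:**
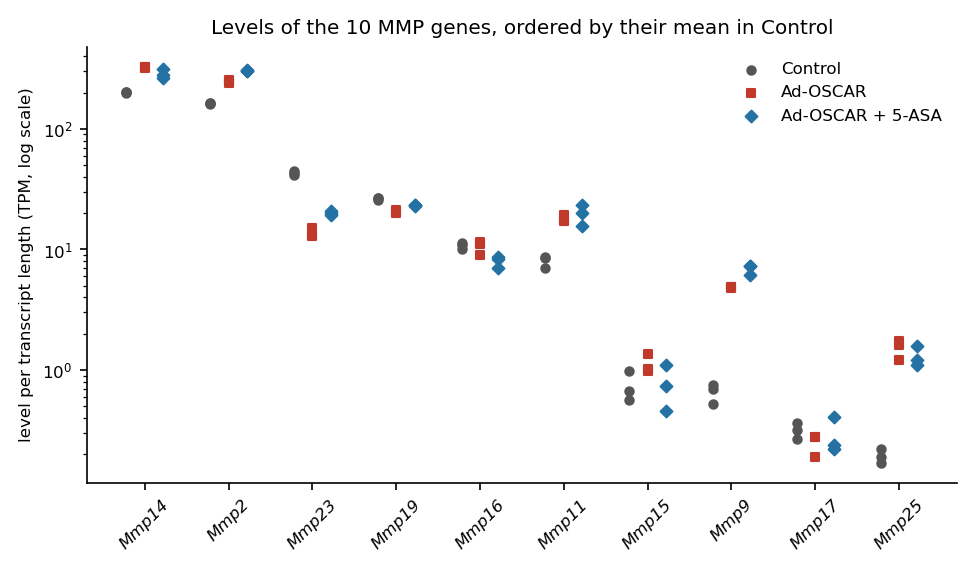
Level of each of the 10 MMP genes in TPM (log scale) in the 9 cultures, ordered by the mean in Control; each point is 1 culture, in grey for Control, red for Ad-OSCAR and blue for Ad-OSCAR + 5-ASA. *Mmp14* and *Mmp2* stand above the other members in all cultures, while *Mmp9*, *Mmp15*, *Mmp17* and *Mmp25* were under 1 TPM in Control.

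With Ad-OSCAR, 6 of the 10 members were higher than in Control and 2 were lower by the quasi-likelihood test of edgeR (adjusted p below 0.05 by the Benjamini-Hochberg method over all genes). *Mmp2*, *Mmp9*, *Mmp11*, *Mmp14*, *Mmp15* and *Mmp25* rose, *Mmp19* and *Mmp23* fell, and *Mmp16* and *Mmp17* did not pass. Of all genes tested, 65.0% passed in this comparison, 32.7% higher and 32.2% lower, so that passing the test was common. The CPM of the groups did not overlap for 9 members, against 69.0% of all genes. With a limit of |log2FC| > 1.5 as well, *Mmp9* and *Mmp25* remained among the higher and *Mmp23* among the lower, where 9.96% of all genes passed, 4.57% higher and 5.39% lower. The median log2 fold change of the members was 0.60, beside 0.02 for all genes.

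With 5-ASA, 4 members were higher than in untreated Ad-OSCAR cells (*Mmp2*, *Mmp9*, *Mmp19* and *Mmp23*) and 2 were lower (*Mmp15* and *Mmp16*) by the same test, where 17.8% of all genes passed, 10.4% higher and 7.38% lower. The call of *Mmp15* was lost in 7 of 19 other fits, with a log2 fold change of -0.83 to -0.28 over the 19. *Mmp11*, *Mmp14*, *Mmp17* and *Mmp25* did not pass. The CPM of 6 members did not overlap between these groups, against 33.8% of all genes. With |FC| > 1.5 and an unadjusted p below 0.05, *Mmp9*, *Mmp23* and *Mmp15* remained, where 4.15% of all genes passed, 2.27% higher and 1.87% lower. In the fits on TPM no member passed these limits. The median log2 fold change was 0.15 for the members and 0.00 for all genes. The Ad-OSCAR cultures enter both this comparison and the one with Control, so their noise enters both with opposite signs.

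**Figure D2:**
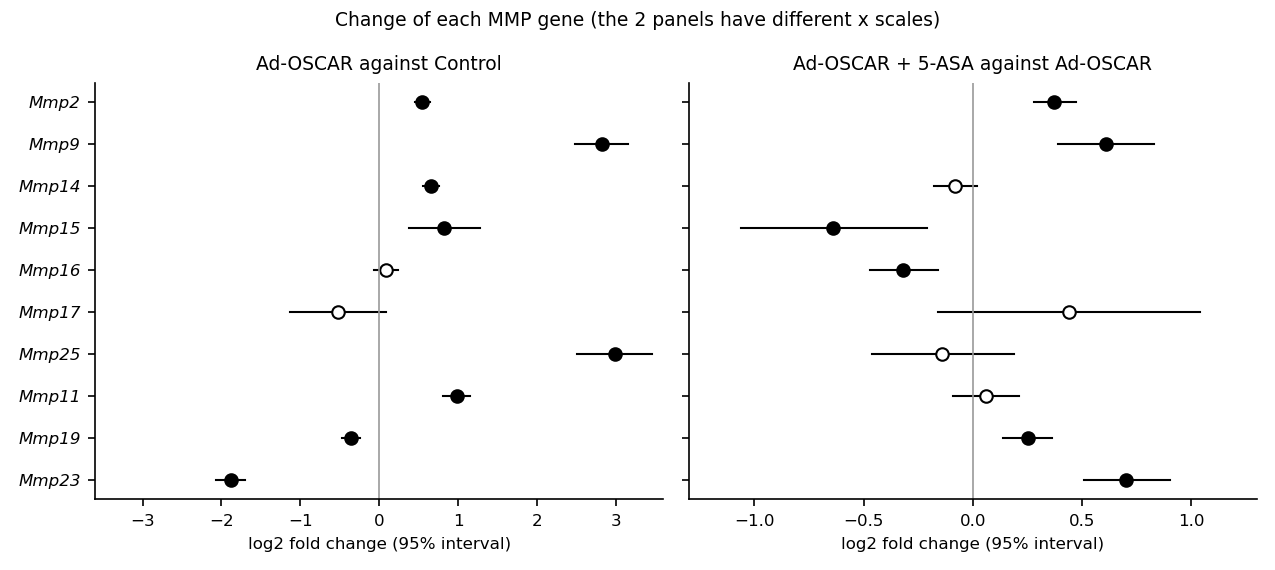
Log2 fold change of each MMP gene with its 95% interval, for Ad-OSCAR against Control (left) and Ad-OSCAR + 5-ASA against Ad-OSCAR (right, on a narrower scale); filled points passed the test at an adjusted p below 0.05 and open points did not. *Mmp9* and *Mmp25* lie farthest to the right with Ad-OSCAR, at 2.82 and 2.98, while no change with 5-ASA is larger than 0.70 in size.

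Both gelatinase genes were higher with Ad-OSCAR and higher again with 5-ASA. *Mmp2* (ENSMUSG00000031740.8; chromosome 8 of GRCm38 from 92827291 to 92853420) encodes gelatinase A. Its level was 282, 275 and 283 CPM in the Control cultures, 412, 426 and 385 in the Ad-OSCAR cultures and 537, 525 and 523 with 5-ASA. The 3 groups did not overlap, and the spread within each was small. The log2 fold change was 0.54 with Ad-OSCAR (standard error 0.04, adjusted p = 4.33e-09, edgeR) and a further 0.37 with 5-ASA (standard error 0.04, adjusted p = 9.89e-06, edgeR), each a change of less than 1.5-fold. In TPM *Mmp2* went from 163 to 250 and then 302, and all 3 groups were again apart.

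*Mmp9* (ENSMUSG00000017737.2; chromosome 2 from 164940780 to 164955850) encodes gelatinase B, which is known from neutrophils, macrophages and osteoclasts and from inflamed cartilage. It had 1.37, 0.945 and 1.27 CPM in Control, from 23 to 29 counts, 8.62, 8.90 and 7.57 with Ad-OSCAR and 14.0, 11.2 and 13 with 5-ASA. Every Ad-OSCAR culture was above every Control culture, and every treated culture above every untreated Ad-OSCAR culture. *Mmp9* was 7.05-fold higher with Ad-OSCAR (log2 fold change 2.82, standard error 0.16, adjusted p = 2.19e-11, edgeR) and 1.52-fold higher again with 5-ASA (0.61, standard error 0.10, adjusted p = 0.000404, edgeR). The second rise lay just past 1.5-fold: without Ad-OSCAR culture 3 or treated culture 1 it was 0.54 on the log2 scale, below that limit. On log2(TPM + 0.1) the log2 fold change with 5-ASA was 0.49 and missed the threshold (adjusted p = 0.0578, limma).

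Even so *Mmp2* stayed far above *Mmp9* in all cultures. The ratio of their TPM was 218 to 312 in Control, 50.2 to 52.1 with Ad-OSCAR and 41.2 to 48.9 with 5-ASA.

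Since *Mmp9* and *Mmp25* are known from white blood cells, the markers of such cells are given beside them. Of 9 neutrophil markers, 2 passed the filter on low counts, *S100a8* (4 to 11 counts in Control and 214 to 249 with Ad-OSCAR) and *Camp* (58 to 75 and 262 to 337). *S100a8* passed it through the groups where it was high. The list summed to 3.29 to 3.73 CPM in Control, 18.0 to 21.4 with Ad-OSCAR and 18.5 to 18.9 with 5-ASA. *S100a9*, which neutrophils make together with *S100a8*, was at 0 counts in all 9 cultures, and *Ly6g*, *Elane* and *Mpo* had at most 2 counts in any. Of 14 macrophage and osteoclast markers 6 were tested, of which 3 were higher (*Cd68*, *Ctsk* and *Lyz2*) and 2 lower (*Acp5* and *Mrc1*) with Ad-OSCAR, and the list summed to 25.3 to 27.3, 30.3 to 31.5 and 28.4 to 29.0 CPM in the 3 groups. *Cd68*, a lysosomal protein of macrophages, had the largest change, a log2 fold change of 2.06 (32 to 50 counts in Control and 201 to 240 with Ad-OSCAR, adjusted p = 7.77e-10, edgeR), and of -0.38 with 5-ASA (adjusted p = 0.0327, edgeR). *C1qa*, *C1qb* and *Dcstamp* were at 0 in all cultures, *Ptprc*, the pan-leukocyte marker CD45, had at most 2 counts and *Adgre1*, the macrophage marker F4/80, at most 3. Of 7 endothelial markers 2 were tested, *Tek* (8 to 16 counts in Control and 45 to 70 with Ad-OSCAR) and *Vwf* (3 to 11 and 58 to 82), and *Vwf* passed the filter through the groups where it was high. The list had a sum of 0.581 to 1.23 CPM in Control, 4.51 to 5.53 with Ad-OSCAR and 2.23 to 2.73 with 5-ASA. Of 10 synovial fibroblast markers 8 were tested, with 3 higher and 4 lower, and their sum went from 9486 to 10476 CPM in Control to 4363 to 4711 with Ad-OSCAR and was 4899 to 5500 with 5-ASA. Most of that sum was *Col1a1*, which chondrocytes in culture also express, with a mean of 9195, 2895 and 3561 CPM in the 3 groups. The other 9 summed to 890 to 925, 1670 to 1680 and 1640 to 1745 CPM, and among them *Prg4* (247, 897 and 793) was higher and *Thy1* (14.1, 2.43 and 4.25) lower with Ad-OSCAR. For comparison, 32.7% of all genes tested were higher and 32.2% lower with Ad-OSCAR. The part of these cell types in the results was not tested.

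**Figure D3:**
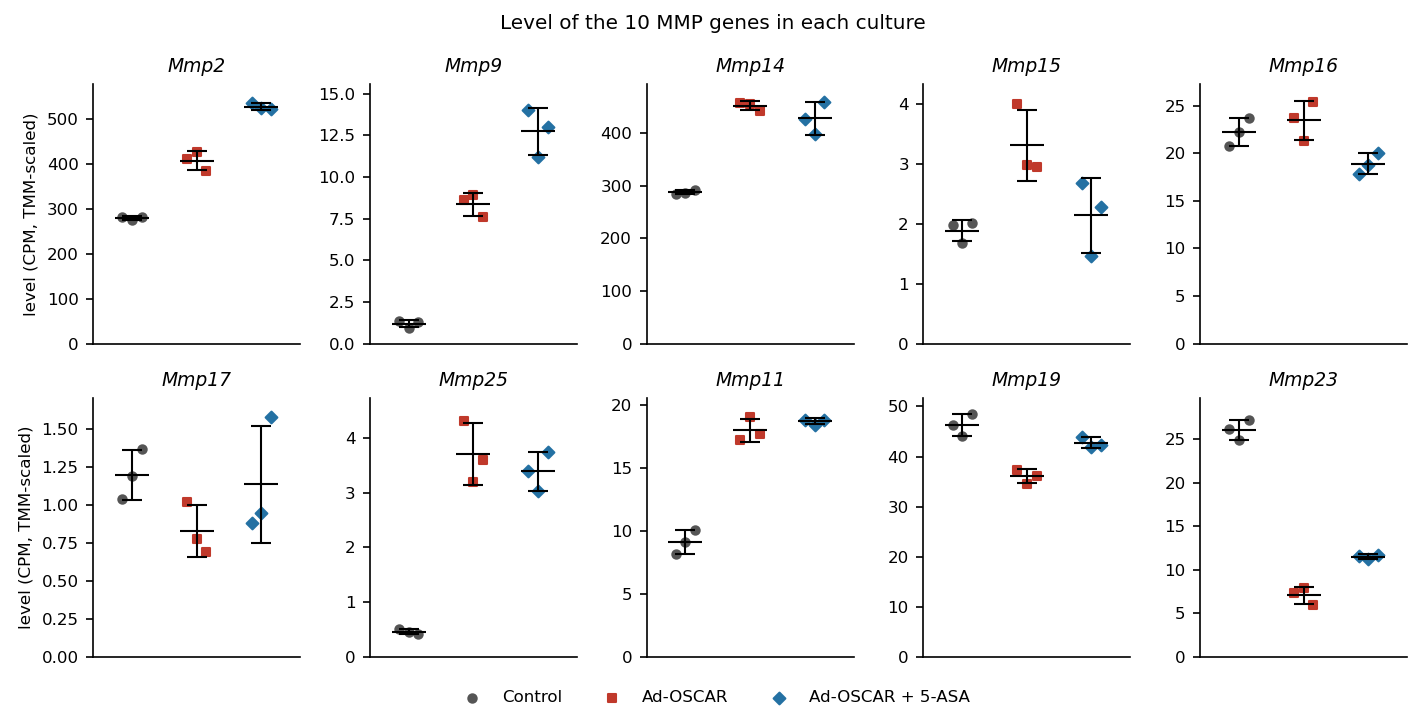
Level in CPM (linear axes from 0, a scale of its own in each panel) of the 10 MMP genes in each culture; points are cultures, and the horizontal line and bars are the mean and SD of the 3 cultures of a group. *Mmp2* and *Mmp9* step up at both comparisons, *Mmp23* drops from 26.1 to 7.07 and is 11.5 CPM with 5-ASA, and the groups overlap most in *Mmp17*.

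Of the transmembrane MMPs, *Mmp14* and *Mmp15* were higher with Ad-OSCAR, and *Mmp14* did not pass the test with 5-ASA. *Mmp14* (ENSMUSG00000000957.11; chromosome 14 from 54431612 to 54445364), the membrane collagenase whose promoter is printed above, had 285, 286 and 292 CPM in Control, 458, 456 and 443 with Ad-OSCAR and 427, 398 and 460 with 5-ASA. All Ad-OSCAR cultures were above all Control cultures, while 1 treated culture was above the untreated ones and 2 were below. The log2 fold change was 0.65 with Ad-OSCAR (standard error 0.05, adjusted p = 1.26e-09, edgeR), or 1.57-fold, and -0.08 with 5-ASA (95% interval -0.18 to 0.02, adjusted p = 0.301, edgeR). In TPM the treated cultures lay below the untreated ones, at 263 to 317 against 320 to 328, and over 19 other fits the adjusted p was 0.0659 to 0.764. The treated cultures varied more, with a coefficient of variation of 7.24% against 1.20% in Control and 1.78% with Ad-OSCAR.

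*Mmp15* (ENSMUSG00000031790.8; chromosome 8 from 95352268 to 95375080), a relative of *Mmp14* known mainly from epithelia and vessels, was low. Its counts were 38 to 42 in Control, 73 to 118 with Ad-OSCAR and 40 to 70 with 5-ASA, or 1.98, 1.68 and 2.01, then 4.0, 2.99 and 2.95, then 2.69, 1.46 and 2.29 CPM. All Ad-OSCAR cultures were above the others, and the treated cultures overlapped with Control. It was 1.77-fold higher with Ad-OSCAR (log2 fold change 0.82, standard error 0.21, adjusted p = 0.00264, edgeR) and 1.55-fold lower with 5-ASA (-0.64, standard error 0.20, adjusted p = 0.037, edgeR). On log2(TPM + 0.1) the rise was 0.57 with an adjusted p of 0.128 (limma). The fall with 5-ASA passed in 12 of 19 other fits: DESeq2 gave -0.63 (adjusted p = 0.0824), and it was -0.47 (adjusted p = 0.199, edgeR) without Ad-OSCAR culture 1, the highest, -0.41 (adjusted p = 0.176, edgeR) without treated culture 2, the lowest, and -0.69 (adjusted p = 0.0616, edgeR) without treated culture 3.

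*Mmp16* (ENSMUSG00000028226.15; chromosome 4 from 17852893 to 18119145) was the transmembrane member that fell with 5-ASA without having passed the test with Ad-OSCAR. Its level was 20.7, 22.2 and 23.7 CPM in Control, 23.7, 21.3 and 25.4 with Ad-OSCAR and 17.8, 18.8 and 20.0 with 5-ASA. The first groups overlapped, and all treated cultures were below both. The log2 fold change was 0.08 with Ad-OSCAR (95% interval -0.07 to 0.24, adjusted p = 0.33, edgeR; -0.03 in TPM), and -0.32 with 5-ASA (standard error 0.07, adjusted p = 0.00578, edgeR). On log2(TPM + 1) the latter was -0.37 with an adjusted p of 0.0509 (limma).

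The GPI-anchored members differed from each other. *Mmp25* (ENSMUSG00000023903.8; chromosome 17 from 23628311 to 23645277), also called leukolysin and first known from leukocytes, was the member with the largest rise with Ad-OSCAR. It had 0.519, 0.452 and 0.423 CPM in Control, from only 8 to 11 counts, 4.31, 3.20 and 3.6 with Ad-OSCAR (78 to 127 counts) and 3.39, 3.03 and 3.75 with 5-ASA (83 to 95 counts). Control stood apart from the other groups, which overlapped. The rise was 7.91-fold (log2 fold change 2.98, standard error 0.23, adjusted p = 1.37e-09, edgeR), and the change with 5-ASA was -0.14 (95% interval -0.46 to 0.19, adjusted p = 0.608, edgeR). Its promoter and that of *Mmp14*, both printed above, hold GC boxes, as do those of *Mmp11* and *Mmp15* and 32.7% of all windows.

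*Mmp17* (ENSMUSG00000029436.9; chromosome 5 from 129584169 to 129611099), which encodes MT4-MMP, had 19 to 40 counts in any culture. Its level was 1.04 to 1.37 CPM in Control, 0.691 to 1.02 with Ad-OSCAR and 0.885 to 1.58 with 5-ASA, where culture 3 stood at 1.58 above both others. The log2 fold change was -0.52 with Ad-OSCAR (95% interval -1.13 to 0.09, adjusted p = 0.126, edgeR) and 0.44 with 5-ASA (95% interval -0.16 to 1.04, adjusted p = 0.324, edgeR). Neither change passed the test, and each interval holds changes in both directions.

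Of the 3 remaining members, *Mmp23* had the largest fall. *Mmp23* (ENSMUSG00000029061.2; chromosome 4 from 155650655 to 155653384) encodes a protease anchored by its amino-terminal end and without the hemopexin domain of its relatives. Its level was 26.1, 24.9 and 27.2 CPM in Control, 7.33, 7.91 and 5.97 with Ad-OSCAR and 11.6, 11.2 and 11.7 with 5-ASA. The groups did not overlap, and the treated cultures lay between the others. *Mmp23* was 3.69-fold lower with Ad-OSCAR (log2 fold change -1.88, standard error 0.09, adjusted p = 1.34e-12, edgeR) and 1.63-fold higher with 5-ASA than without it (0.70, standard error 0.09, adjusted p = 3.73e-05, edgeR). The treated cultures were still 2.27-fold below Control (-1.18, standard error 0.08, adjusted p = 5.47e-10, edgeR).

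*Mmp19* (ENSMUSG00000025355.7; chromosome 10 from 128790910 to 128800824) moved in the same directions by less. It had 46.4, 44.1 and 48.5 CPM in Control, 37.4, 34.6 and 36.1 with Ad-OSCAR and 44.0, 42.0 and 42.4 with 5-ASA, with no overlap between the groups. The log2 fold change was -0.36 with Ad-OSCAR (standard error 0.05, adjusted p = 7.88e-06, edgeR) and 0.25 with 5-ASA (standard error 0.05, adjusted p = 0.00249, edgeR), and the latter was 0.15 with an adjusted p of 0.088 on log2(TPM + 0.1) (limma). Treated cells differed from Control by -0.11 (95% interval -0.22 to -0.01, adjusted p = 0.0621, edgeR). In 5 of 19 other fits this passed, among them -0.19 on log2(TPM + 0.1) (adjusted p = 0.0113, limma) and -0.15 without Control culture 2 (adjusted p = 0.0272, edgeR). *Mmp19* was the member whose counts were not whole before rounding, and it overlaps *Gm47093* (2 to 8 counts) and, over 789 bases, *Tmem198b* (352 to 724 counts) on the opposite strand. Whether the counting used the strand is not stated, so the values of *Mmp19* are less certain.

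*Mmp11* (ENSMUSG00000000901.17; chromosome 10 from 75923222 to 75936496) encodes stromelysin-3, a protease of stromal cells. It had 8.16, 9.08 and 10.1 CPM in Control, 17.2, 19.0 and 17.7 with Ad-OSCAR and 18.8, 18.4 and 18.8 with 5-ASA. It was 1.97-fold higher with Ad-OSCAR (log2 fold change 0.98, standard error 0.08, adjusted p = 6.11e-09, edgeR), with all cultures above Control, and the change with 5-ASA was 0.06 (95% interval -0.09 to 0.21, adjusted p = 0.637, edgeR). *Mmp11* overlaps *Chchd10* over 3367 bases on the opposite strand, a gene with 16 to 321 counts per culture, so its values are less certain as well.

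Compared with Control, the Ad-OSCAR + 5-ASA cultures had 5 members higher (*Mmp2*, *Mmp9*, *Mmp11*, *Mmp14* and *Mmp25*) and 2 lower (*Mmp16* and *Mmp23*), where 63.2% of all genes passed, 31.4% higher and 31.8% lower. *Mmp15*, *Mmp17* and *Mmp19* did not pass. With |FC| > 1.5 and an unadjusted p below 0.05, *Mmp2*, *Mmp9*, *Mmp11* and *Mmp25* were higher and *Mmp23* lower, where 29.9% of all genes passed, 14.6% higher and 15.3% lower. The CPM of 8 members did not overlap, against 66.6% of all genes. *Mmp9* was 10.7-fold above Control (log2 fold change 3.43, standard error 0.15, adjusted p = 7.1e-13, edgeR) and *Mmp2* 1.89-fold (0.92, standard error 0.04, adjusted p = 2.85e-12, edgeR). *Mmp25* was 7.20-fold, *Mmp11* 2.06-fold and *Mmp14* 1.49-fold above it. *Mmp16* lay below it by -0.23 on the log2 scale (adjusted p = 0.0136, edgeR), and this was -0.19 and missed the threshold without Control culture 3 (adjusted p = 0.0624, edgeR) or without treated culture 1 (adjusted p = 0.0674, edgeR). This comparison shares the Control cultures with the first.

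The genes that make up the MMP-14, TIMP-2 and MMP-2 complex did not keep a fixed proportion. The TPM ratio of *Mmp2* to *Mmp14* was 0.825, 0.808 and 0.816 in Control, 0.765, 0.798 and 0.748 with Ad-OSCAR and 1.07, 1.14 and 0.969 with 5-ASA. It was highest in the treated cultures, with no overlap between the groups. *Timp2* exceeded *Mmp14* by 4.10 to 4.30 in Control, 1.59 to 1.65 with Ad-OSCAR and 1.64 to 1.88 with 5-ASA, as a ratio of TPM. No test was made on these ratios. *Timp1*, whose product binds proMMP-9, stood 1923 to 3024 times above *Mmp9* in Control, 409 to 429 times with Ad-OSCAR and 296 to 360 times with 5-ASA.

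**Figure D4:**
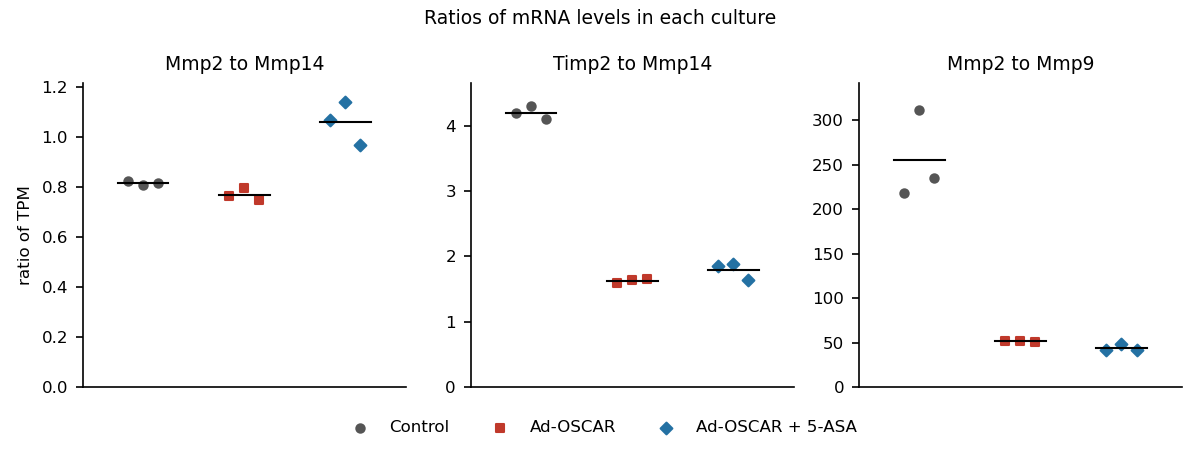
Ratios of TPM in each of the 9 cultures (axes from 0), for *Mmp2* to *Mmp14*, *Timp2* to *Mmp14* and *Mmp2* to *Mmp9*; each point is 1 culture and the line is the mean of a group. *Mmp2* to *Mmp14* is near 0.8 without 5-ASA and 0.969 to 1.14 with it, whereas the other ratios drop with Ad-OSCAR, *Timp2* to *Mmp14* from a mean of 4.20 to 1.63.

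Of 7 genes for inhibitors of MMPs, 6 were tested, and 4 were lower and 1 (*Timp1*) higher with Ad-OSCAR, against 32.2% and 32.7% of all genes. Their median log2 fold change was -0.78, beside 0.02 for all genes. With 5-ASA 4 were higher and 1 lower, against 10.4% and 7.38% of all genes, with a median of 0.36 beside 0.00. *Timp3*, the inhibitor bound to the matrix, changed by -3.35 with Ad-OSCAR and 0.89 with 5-ASA on the log2 scale. *Reck*, a membrane-anchored inhibitor of MMP-2, MMP-9 and MMP-14, changed by -1.67 and 0.55. *Timp2* changed by -0.85 and 0.18. *A2m*, which encodes the broad protease trap alpha-2-macroglobulin, was lower in both comparisons, at -0.72 and -0.45. Scaled as TPM, or without Ad-OSCAR culture 1, 2 of the inhibitors were higher with 5-ASA in place of 4.

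Of the 13 other MMPs, most of them in the chromosome 9 cluster, 7 were tested and 6 were higher with Ad-OSCAR, against 32.7% of all genes. Some of them passed the filter through the groups where they were high, such as *Mmp1b* with 0 to 2 counts in Control and 25 to 44 with Ad-OSCAR. Of the 4 that reached 10 counts in each of the cultures, 3 were higher. With 5-ASA 2 were lower (*Mmp10*, -1.62, and *Mmp12*, -1.30) and 2 higher (*Mmp3*, 0.25, and *Mmp28*, 0.32, the latter named after its value was seen), and no rise passed in TPM. Without Ad-OSCAR culture 1 or 2 or treated culture 1, 1 was higher in place of 2. Among all genes tested, 10.4% were higher and 7.38% lower with 5-ASA. *Mmp24*, the other transmembrane type, had 1 to 8 counts per culture and was not tested.

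Of 15 activators and surface partners, all tested, 8 were higher and 6 lower with Ad-OSCAR, where 32.7% of all genes were higher and 32.2% lower. With 5-ASA 5 were higher and 3 lower, against 10.4% and 7.38% of all genes. *Lcn2*, whose human product is known to bind MMP-9, changed by 0.69 and then 0.44 on the log2 scale, higher in both. *Pcsk6*, a proprotein convertase, changed by -3.49 and 0.50, *Itgb3*, a subunit of the integrin that docks MMP-2, by 2.26 and -0.43, and *Bsg*, the MMP inducer CD147, by 0.53 and -0.35. The medians of the list were 0.20 and 0.13, beside 0.02 and 0.00 for all genes. Scaled as TPM with a pseudocount of 0.1, 1 of these genes was higher with 5-ASA in place of 5, and without Ad-OSCAR culture 1 the number was 2.

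Of 15 substrates of gelatinases and membrane-type MMPs, 7 were higher and 7 lower with Ad-OSCAR, against 32.7% and 32.2% of all genes. With 5-ASA 10 were higher and 0 lower by edgeR, against 10.4% and 7.38% of all genes. Their median log2 fold change with 5-ASA was 0.20, beside 0.00 for all genes, and in TPM 1 was higher. The fibrillar collagen genes *Col1a2* (-2.38, then 0.60), *Col1a1* (-1.67, then 0.30) and *Col2a1* (-3.97, then 0.28) were lower with Ad-OSCAR and higher with 5-ASA, while *Col3a1* (0.72, then 0.30) was higher in both.

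RSEM also gives a mean transcript length for each gene, weighted by the abundance of its transcripts. Between Control and Ad-OSCAR this length did not overlap for 3 of the 10 members, against 16.5% of the genes whose length varied. *Mmp23* went from 1140 to 1235 bases in Control to 976 to 1121 with Ad-OSCAR, *Mmp11* from 1977 to 2106 to 1808 to 1877 and *Mmp2* from 2999 to 3027 to 2889 to 2971. These estimated mean lengths were shorter with Ad-OSCAR, and that of *Mmp11* is less certain because of its overlap with *Chchd10*. Between treated and untreated Ad-OSCAR cultures the length of no member stood apart (0 of 10, against 10.8% of genes). No test was made on the lengths.

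For *Mmp2*, *Mmp9* and *Mmp15*, which passed the test in both main comparisons, the genes with the most similar log2 CPM over the 9 cultures were sought among 13266 genes, as a description. Since the 9 cultures fall into 3 groups, the correlation follows mainly the group means. *Mmp2* was most like *Cfb* (Pearson's r = 0.9994) and *Lcn2* (r = 0.9976), and *Mmp9* most like *Dlg4* (r = 0.9983) and *Mgll* (r = 0.9979). *Mmp15* was most like *2310009B15Rik* (r = 0.9646) and *Rnasek* (r = 0.9621).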

How the data were processed

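RNA of 9 cultures of mouse chondrocytes was sequenced by the authors as stranded mRNA libraries (2 × 100 base reads). Reads were trimmed with BBDuk, aligned to GRCm38 with STAR 2.7.1a and counted with RSEM 1.3.1. The authors deposited estimated counts (not scaled to a common total), TPM and a mean transcript length in bases for 55471 genes, of which 55144 were named from GENCODE M21. In each culture, estimated counts were not whole for 8.97% to 10.1% of genes, and they were rounded. TPM sums to a fixed total, and *Saa3* took 3.18% of it in Control, 12.9% with Ad-OSCAR and 14.8% with 5-ASA, which lowers the TPM of other genes.

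Tests used edgeR 4.0.16 in R 4.3.3 (TMM, filterByExpr by group, quasi-likelihood F test, Benjamini-Hochberg adjustment) in one fit of all cultures. The biological coefficient of variation was 5.11%. Genes passed at an adjusted p below 0.05, and the limits of 1.5 follow the methods of the study, which used DESeq2. Those methods word the limit for 5-ASA as treated cells against Ad-Control. Here it was applied to treated against untreated Ad-OSCAR cells as well. The alternatives were DESeq2 1.42.0, RLE scaling, 2 other filters, only the groups compared, a replicate block, counts not rounded, limma 3.58.1 on log2 TPM with pseudocounts of 0.1 and 1, and each culture left out. The methods were tested on simulated data.

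The rule for the members uses no measured value, but the members and lists were chosen with earlier results of these data known. All members were named. Of each pathway list, genes passing in both main comparisons were named, at most 4, by the size of the 5-ASA change, besides those said to be chosen later and members of small counts. Markers are named as examples. For each member passing in both main comparisons, the 2 genes of at least 1 CPM on average with the highest Pearson's r over the cultures were sought, and those of *Mmp19* and *Mmp23* are not reported here. Promoter sequences are from RefSeq on GRCm38.p6. Python 3.11.15 (numpy 2.4.6, pandas 2.3.3, matplotlib 3.10.9) was used for tables and figures.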

Additional observations from a re-analysis of the deposited data

How the results depend on the processing

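Each member was refitted under 19 alternatives in 3 comparisons (*Mmp25* in 18 of them, since it falls under 10 counts in 1 Control culture). Some alternatives leave out a culture of a group not compared, where agreement says little. Values that never passed are counted as well. Of 567 values, 536 kept both their direction and their side of the threshold, 19 lost the call, 5 gained one and 7 changed sign. None of the changes of sign was in a member that had passed. They were *Mmp16* with Ad-OSCAR, which was -0.03 in the 3 fits on TPM, *Mmp15* against Control, which ran from -0.01 to 0.41 when each culture was left out, with its one negative value without Ad-OSCAR + 5-ASA replicate 1, and *Mmp17* against Control, which ran from -0.38 to 0.07 when each culture was left out, and was 0.02 without Control replicate 3 and 0.07 and 0.04 without treated replicates 1 and 2. The number of members higher with 5-ASA was 2 in place of 4 on log2(TPM + 0.1), with and without the filter. The number lower with 5-ASA was 1 in place of 2 with DESeq2 and on log2(TPM + 0.1), 0 on log2(TPM + 1) and on TPM without the filter, and 1 to 2 when each culture was left out. The number lower in treated cells than in Control was 1 to 3 when each culture was left out. The cause of these changes was not tested. With 5-ASA the median log2 fold change of all genes was -0.10 on log2(TPM + 0.1) and 0.00 on TMM-scaled counts. With at least 10 counts in every culture, 1 member was past |log2FC| > 1.5 among the higher with Ad-OSCAR in place of 2, since *Mmp25* was not tested. On log2(TPM + 1) the number was 1 as well, where *Mmp25* changed by 1.07. With the replicate number as a block, 6 members were higher and 2 lower with Ad-OSCAR and 4 higher and 2 lower with 5-ASA, as without it, and no call of a member changed. Same-numbered cultures deviated with a mean correlation of -0.021 (from -0.0724 to 0.0402 over 9 pairs). No effect shared by number was visible, but this cannot exclude that the numbers mark shared sources. Depth limits *Mmp15*, *Mmp17* and *Mmp25*, and in Control *Mmp9*, and these 4 genes had 8 to 42 counts per Control culture.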
